A study of Sus scrofa with 6 samples.

Results

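The 10 genes described here are the FOS family of transcription factors (FOS, FOSB, FOSL1 and FOSL2), the JUN family (JUN, JUNB and JUND), the zinc finger factor EGR1, the oncogenic factor MYC and the early response gene IER3. They were taken by gene name from the 31908 Ensembl pig gene IDs of the TPM table, and the values of all listed transcripts of an ID were added. A deposited gene name identified 8 of the 10 genes. JUND had no deposited name and was found by its description. JUN (ENSSSCG00000031912) had neither a name nor a description in the table and was identified only by a table that pairs Ensembl IDs with symbols.

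FOS and JUN proteins join through leucine zippers to form AP-1, a dimer that binds DNA. JUN proteins can pair with each other, whereas FOS itself needs a partner such as JUN. Many of these genes are immediate early genes, which growth factors, stress and MAP kinases switch on within minutes, without new protein synthesis, and which are mostly switched off again soon after. MYC binds DNA as a dimer with MAX and drives genes of ribosome production and growth, and in the gut epithelium MYC and AP-1 are known for their part in the proliferation of crypt cells.

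The samples were cultures of IPEC-J2, a pig line of small intestinal cells that was not derived from a tumour. In the control (CON) group, cells of this line received PBS. In the CDCA group, they received chenodeoxycholic acid, a primary bile acid, at 50 μM. Each group had 3 libraries of total RNA collected after 24 h, so the values describe a late time point for genes whose first response is early. Nothing in the labels says whether the 3 libraries of a group came from separate cultures. The authors call them biological replicates. The p-values measure only the spread between these libraries.

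Listed TPM added up to between 351770 and 366073 per library. TPM made over a full set of transcripts add up to 1000000, so the table covers part of that scale, and the gene sums, level orders and shares given here rest on the listed transcripts alone. Read counts per gene were not used here, so no counting interval is given for a TPM value. Pearson's r of log2(TPM + 1) across genes, which are not independent replicates, was 0.972 to 0.980 within groups and 0.927 to 0.934 between them. Of 8 listed epithelial markers, 5 had at least 1 TPM in every library, among them EPCAM (118.45 to 173.29 TPM) and KRT8 (190.22 to 237.76 TPM). VIL1, CDX2 and CDH1, which also mark gut epithelium, stayed under 1 TPM. The epithelial markers added up to 646.61 to 668.11 TPM (CON) and 1207.71 to 1346.92 TPM (CDCA), of which CLDN4 took 214.59 to 862.66 TPM. All 6 fibroblast markers stayed under 1 TPM, and their sum was 1.35 to 1.83 TPM in CON and 1.00 to 1.14 TPM in CDCA. The 4 leukocyte markers summed to 1.26 to 2.49 TPM in CON and 6.49 to 7.24 TPM in CDCA, where PTPRC reached at most 0.01 TPM and CD68 at most 5.33 TPM. The 3 listed endothelial markers summed to 2.20 to 2.69 TPM in CON and 1.87 to 2.33 TPM in CDCA. The part of these markers in the results was not tested, and in bulk RNA fewer cells of a type and less RNA per cell cannot be told apart.

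CDCA cells had more IER3 and JUNB mRNA and less FOSL2, FOSL1 and MYC mRNA than CON cells, all by less than 2-fold. EGR1 was listed at 0 TPM in every library and could not be tested. The 8708 genes that averaged 1 TPM or more were tested by limma on log2(TPM + 1), with Benjamini-Hochberg adjustment over all of them. In what follows a gene rose or fell where its FDR was under 0.05, and it was called where its log2 fold change was also over 1 in size. None of the 9 tested factors was called higher and none lower, against 3.51% and 3.9% of all tested genes. The same counts were 0 and 0 by limma without the trend. By the FDR alone, 2 rose and 3 fell, where 29.3% of all tested genes rose and 23.9% fell, so the counts lay near the background. The CDCA libraries lay wholly above the CON libraries for 2 factors and wholly below for 4, against 33.7% and 27.8% of all tested genes. The median log2 fold change was -0.18 over the 9 factors and 0.05 over all tested genes, and 7 of the 9 values were below 0.

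**Figure D1:**
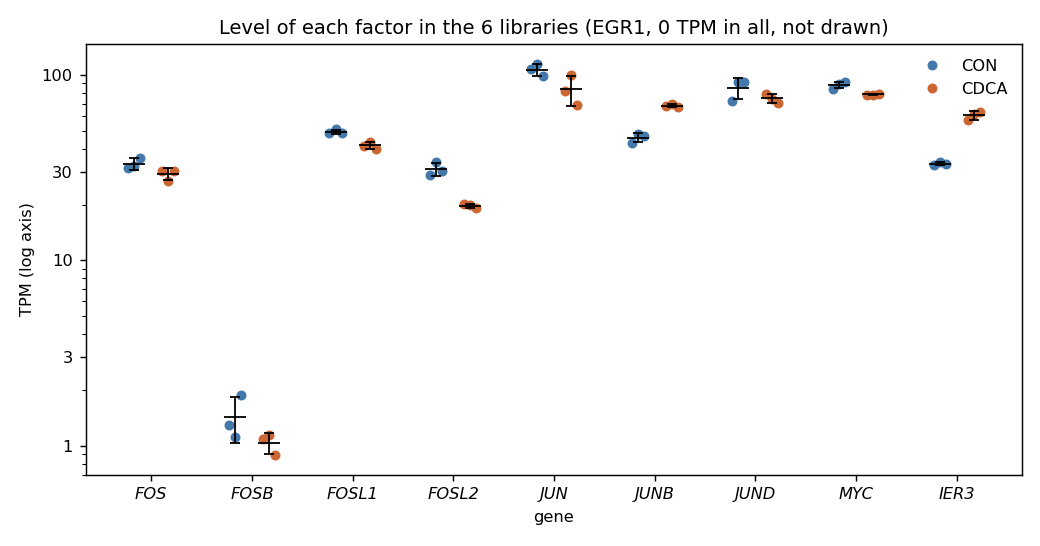
Level of each factor in TPM (log axis) in the 3 CON libraries (blue) and the 3 CDCA libraries (orange), with the mean and SD as black lines. IER3 and JUNB lie higher in all CDCA libraries, FOSL2 lies lower in all of them, and FOSB sits near 1 TPM in both groups.

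In CON, JUN was the most abundant of these mRNAs, with a mean of 107 TPM, followed by MYC (88.1 TPM), JUND (85.4 TPM), FOSL1 (49.2 TPM), JUNB (45.9 TPM), IER3 (33.2 TPM), FOS (33.1 TPM), FOSL2 (31.1 TPM) and FOSB (1.43 TPM). TPM is a level per transcript length, so these genes can be set side by side. The library ranges of MYC and JUND overlapped, as did those of IER3 with FOS and of FOS with FOSL2, and no other neighbours in the order overlapped. In CDCA the order was JUN (83.5 TPM), MYC (78.4 TPM), JUND (74.7 TPM), JUNB (68.1 TPM), IER3 (60.6 TPM), FOSL1 (41.6 TPM), FOS (29.2 TPM), FOSL2 (19.7 TPM) and FOSB (1.04 TPM). There the ranges overlapped for JUN with MYC and for MYC with JUND. JUNB and IER3 thus stood above FOSL1 in CDCA and below it in CON.

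Among the FOS family, FOSL2 (ENSSSCG00000032527, also called FRA2), a FOS relative without a strong transactivation domain of its own, differed most. The CON libraries had 28.87, 33.93 and 30.45 TPM, and the CDCA libraries had 20.21, 19.76 and 19.23 TPM. The groups were well apart, and the 3 CDCA values were within 1 TPM of each other. Its mean (± SD, n = 3) fell from 31.1 ± 2.6 to 19.7 ± 0.49 TPM, with a log2 fold change of -0.63 ± 0.07 (SE) and a limma FDR of 0.00035. Its fall was larger in size than the change of most tested genes, with 22.2% of them changing more.

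FOSL1 (ENSSSCG00000012967, also FRA1), the relative most often tied to invasive and migrating epithelia, was the most abundant FOS family mRNA. Its levels were 48.43, 50.81 and 48.46 TPM in CON against 41.44, 43.66 and 39.80 TPM in CDCA. The groups did not overlap, although the distance between them was small. FOSL1 fell from 49.2 ± 1.4 to 41.6 ± 1.9 TPM (mean ± SD, n = 3), and the log2 fold change was -0.24 ± 0.05 (SE) at a limma FDR of 0.0062. With totals without the mtDNA-encoded genes it was -0.41 (limma FDR 0.00050). Nearly all of it (99.8% of the gene's TPM) came from a single listed transcript.

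FOS (ENSSSCG00000002383), the founding member of the family, had 31.31, 32.23 and 35.83 TPM in CON against 30.35, 26.82 and 30.49 TPM in CDCA. The highest CDCA library lay just below the lowest CON library. The log2 fold change was -0.18 (95% interval -0.35 to 0.00092, limma FDR 0.086), which did not pass the threshold. With each library divided by its median ratio to the gene means, it was -0.23 (limma FDR 0.041), and where mtDNA-encoded genes were kept out of the library totals it was -0.35 (limma FDR 0.0073). It was smaller in size without CDCA replicate 2 (-0.12, limma FDR 0.22), without CON replicate 3 (-0.12, limma FDR 0.21) and with the highest listed transcript (-0.07, limma FDR 0.53). Of the 4 listed FOS transcripts, the first took 48.8% and the second 41.0% of the gene's TPM, with CDCA to CON ratios of 0.946 and 0.828 and overlapping groups for both.

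FOSB (ENSSSCG00000031616), a paralog of FOS that is best known from neurons, was close to the limit of the test. It had 1.30, 1.12 and 1.88 TPM in CON against 1.09, 1.14 and 0.89 TPM in CDCA, and the groups overlapped. The highest CON value included 0.40 TPM of a transcript that was at 0 in the other 5 libraries. The log2 fold change was -0.24 (95% interval -0.60 to 0.11, limma FDR 0.21). It was -0.12 without CON replicate 3, -0.15 with the highest listed transcript and -0.40 with a pseudocount of 0.1 TPM.

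**Figure D2:**
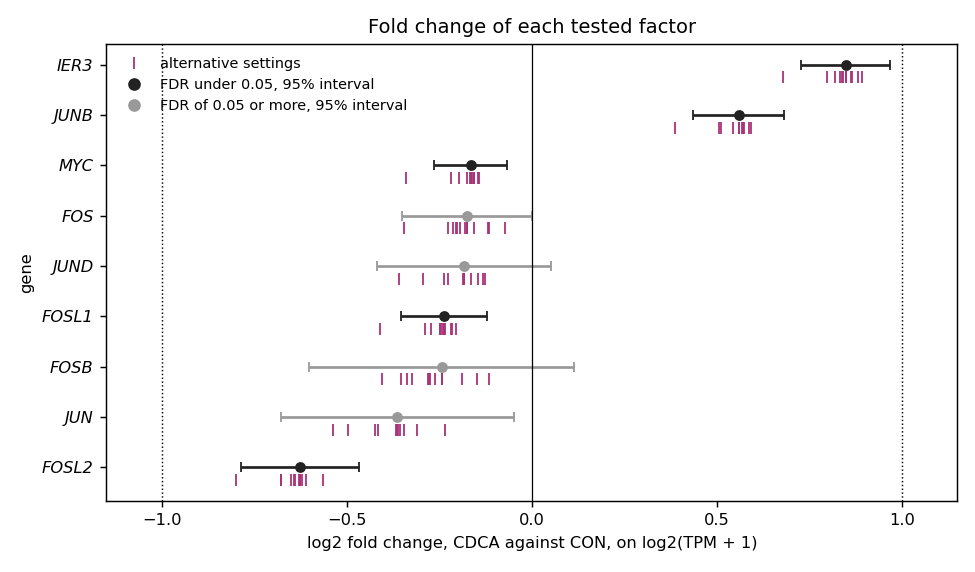
Fitted log2 fold change of CDCA against CON for the 9 tested factors, with the 95% interval of limma (black where the FDR was under 0.05, grey otherwise). Purple ticks are the values under the alternative settings, and dotted lines mark a log2 fold change of 1 in size, which no factor reached.

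In the JUN family, JUNB (ENSSSCG00000013735), a JUN relative that can oppose JUN on some promoters, moved the other way from FOSL2. Its levels were 42.97, 48.21 and 46.65 TPM in CON against 68.01, 69.48 and 66.73 TPM in CDCA. The 3 CDCA libraries lay close together and well above CON. JUNB rose from 45.9 ± 2.7 to 68.1 ± 1.4 TPM (mean ± SD, n = 3), which is a ratio of 1.48, and the log2 fold change was 0.56 ± 0.05 (SE) at a limma FDR of 0.00019.

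JUN, the partner through which most FOS proteins reach DNA, had 107.52, 114.62 and 98.01 TPM in CON against 82.19, 99.47 and 68.76 TPM in CDCA. CDCA replicate 2 lay above CON replicate 3, so the groups overlapped, and the CDCA values spread more (coefficient of variation 18.4%) than the CON values (7.81%). The log2 fold change was -0.36 (95% interval -0.68 to -0.05, limma FDR 0.055). Without CDCA replicate 2 it was -0.50 (limma FDR 0.0099), and with the median ratio scaling it was -0.42 (limma FDR 0.038). Without CDCA replicate 3 it was -0.23 (limma FDR 0.12).

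JUND (ENSSSCG00000031657), a JUN relative that many resting cells express steadily, had 72.73, 92.04 and 91.51 TPM in CON against 79.02, 74.53 and 70.52 TPM in CDCA. CON replicate 1 lay among the CDCA libraries and apart from the other 2 CON libraries. The log2 fold change was -0.18 (95% interval -0.42 to 0.05, limma FDR 0.16), and without CON replicate 1 it was -0.30 (limma FDR 0.0085). The other single libraries left out gave -0.23 to -0.13, with an FDR of 0.15 or more. With totals without the mtDNA-encoded genes it was -0.36 (limma FDR 0.018).

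Summed over the 7 genes, the FOS and JUN family mRNA came to 333.13, 372.96 and 352.79 TPM in CON and to 322.31, 334.86 and 296.42 TPM in CDCA, and the groups overlapped. The FOS family part was 109.91, 118.09 and 116.62 TPM in CON and 93.09, 91.38 and 90.41 TPM in CDCA, without overlap. The JUN family part overlapped, with means (± SD, n = 3) of 238 ± 16 TPM for CON and 226 ± 19 TPM for CDCA. No test was made of these sums, since the genes were chosen with results known.

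The share of each gene in this summed mRNA is given as a description, with no test. JUNB held 12.9%, 12.9% and 13.2% of it in CON against 21.1%, 20.7% and 22.5% in CDCA. FOSL2 held 8.80% ± 0.26 (SD, n = 3) in CON and 6.22% ± 0.30 (SD, n = 3) in CDCA, and JUN 30.3% ± 2.3 and 26.1% ± 3.3, respectively. For JUNB and FOSL2 the groups did not overlap, and for JUN they did. FOSL1 held 13.97% ± 0.50 in CON and 13.1% ± 0.29 in CDCA (SD, n = 3), again without overlap. JUND (24.1% and 23.5%), FOS (9.40% and 9.24%) and FOSB (0.408% and 0.326%) had overlapping shares. The ratio of JUNB to JUN was 0.400, 0.421 and 0.476 in CON and 0.827, 0.699 and 0.970 in CDCA. The ratio of FOSL1 to FOSL2 was 1.59 ± 0.090 for CON and 2.11 ± 0.087 for CDCA (SD, n = 3). These ratios and shares come from within a library, so the scaling of the library does not enter them.

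**Figure D3:**
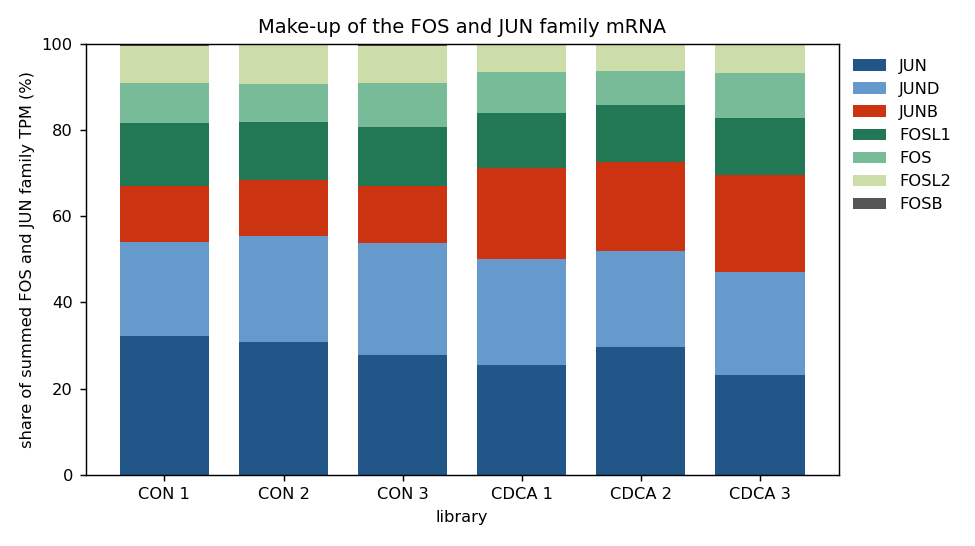
Share of each FOS and JUN family gene in their summed TPM (percent, stacked to 100%) in each of the 6 libraries. The JUNB part (red) is 12.9% to 13.2% of the CON bars and 20.7% to 22.5% of the CDCA bars.

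MYC (ENSSSCG00000005965) had 84.14, 89.13 and 91.01 TPM in CON against 78.28, 77.56 and 79.34 TPM in CDCA. The groups did not overlap, and the CDCA libraries were within 2 TPM of each other. MYC fell from 88.1 ± 3.6 to 78.4 ± 0.90 TPM (mean ± SD, n = 3), which is a ratio of 0.890, and the log2 fold change was -0.17 ± 0.04 (SE) at a limma FDR of 0.014. It was -0.16 (limma FDR 0.052) when CON replicate 2 was left out and -0.34 (limma FDR 0.00050) with totals without the mtDNA-encoded genes.

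The 3 listed MYC transcripts held 36.9%, 31.7% and 31.5% of the gene's TPM. Each of them overlapped between the groups, with CDCA to CON ratios of 0.896, 0.807 and 0.973. In CON replicate 1 the second transcript had 23.46 TPM and the third 30.21 TPM, while in CON replicate 3 they had 33.10 and 22.79 TPM. The SD of the gene sum in CDCA was 0.90 TPM, against 3.2, 2.0 and 4.1 TPM for the transcripts. In CON it was 3.6 TPM, against 2.4, 5.1 and 3.7 TPM. The most abundant transcript alone had a log2 fold change of -0.16 (limma FDR 0.21), and the other 2 were not tested alone.

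**Figure D4:**
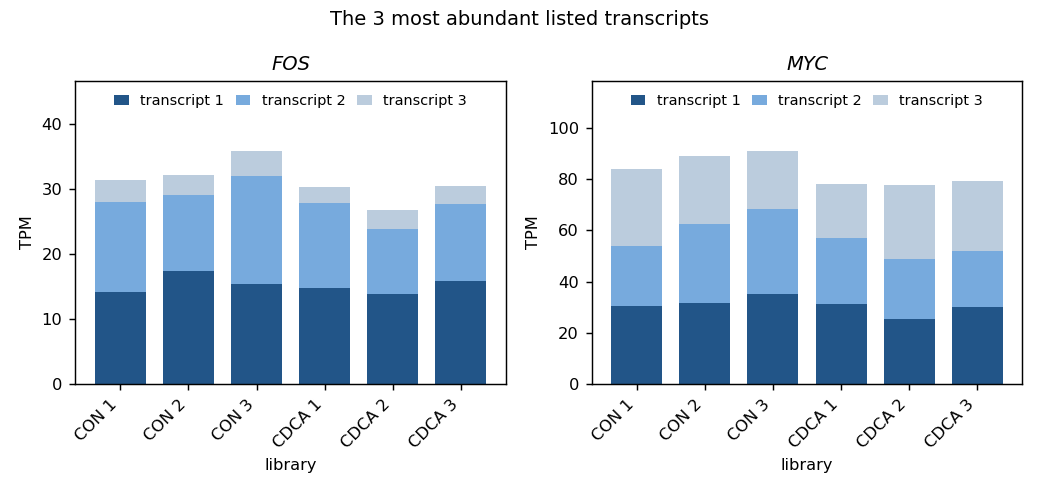
TPM of the 3 most abundant listed transcripts of FOS (left) and MYC (right), stacked, in each library. The stacks of MYC reach 84.14 to 91.01 TPM in CON and 77.56 to 79.34 TPM in CDCA, while the parts vary among libraries of the same group.

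IER3 (ENSSSCG00000027607, also IEX-1), a small early response protein whose gene is a known target of NF-κB and which acts on cell survival, showed the largest difference of the 9 factors. Its levels were 32.78, 33.89 and 32.90 TPM in CON against 56.88, 61.79 and 63.07 TPM in CDCA. The lowest CDCA library lay far above the highest CON library. IER3 rose from 33.2 ± 0.61 to 60.6 ± 3.3 TPM (mean ± SD, n = 3), which is a ratio of 1.83, and the log2 fold change was 0.85 ± 0.05 (SE) at a limma FDR of 3.4e-05. Of all tested genes, 12.2% changed more. The tested genes with the most similar centred profiles over the 6 libraries were IFNGR2, CSF2 and RNF146, with root mean square differences of 0.0187, 0.0317 and 0.0324 on the log2 scale. For FOSL2, the factor with the largest fall, they were ID2, TTC7A and NLE1, with differences of 0.0253, 0.0265 and 0.0333.

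EGR1 (ENSSSCG00000014336), a zinc finger factor that growth signals induce within minutes, was listed at 0 TPM in all 6 libraries from its single listed transcript. A listed 0 can be a failed estimate, and no fold change was computed. Its relatives EGR2, EGR3 and EGR4 averaged under 1 TPM and were not tested. EGR2 had a mean of 0.293 TPM in CON and 0.107 TPM in CDCA, EGR3 0.217 and 0.337 TPM, and EGR4 0.213 and 0.0733 TPM. The MAP kinase phosphatase gene DUSP1, another classic early gene, was also listed at 0 in every library.

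Scaling bears on the small differences. When mtDNA-encoded genes were kept out of the totals, the median log2 change of the genes tested under both scalings shifted by -0.15. Relative to the median of all genes, IER3 was then at 0.78 and JUNB at 0.49, against 0.80 and 0.51 before. FOSL2, FOSL1 and MYC were at -0.70, -0.31 and -0.24 relative to that median, against -0.67, -0.28 and -0.21. No factor changed direction under any alternative that was run.

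Beyond FOS and JUN themselves, many leucine zipper proteins can share dimers with AP-1. Of 22 gene IDs of such partners, 16 were tested, of which 12 rose and 2 fell, with a median log2 fold change of 0.76, or 0.37 when low genes were not filtered out. Of these, 7 were called higher and none lower. Over all tested genes, 29.3% rose, 23.9% fell and 3.51% were called higher. ATF3, a stress factor that pairs with JUN proteins, rose from 41.47, 41.96 and 39.71 TPM in CON to 141.62, 157.79 and 136.46 TPM in CDCA (log2 fold change 1.80, limma FDR 4.3e-06). In CON it stood near JUNB, and in CDCA it was above every one of the factors described so far. MAFF, a small MAF protein, went from 4.13, 4.47 and 3.42 TPM to 15.37, 17.07 and 14.97 TPM (log2 fold change 1.75). CEBPB, a C/EBP factor, went from 33.47, 46.39 and 45.48 TPM to 113.31, 123.26 and 104.39 TPM (1.43), CEBPG had a log2 fold change of 1.23 and NFE2L1, a CNC factor that binds DNA with small MAF proteins, one of 1.20. The other 2 calls were separate IDs with the symbol DDIT3, with log2 fold changes of 3.86 and 1.34, the latter 2.79 with a pseudocount of 0.1 TPM. The ID with the smaller value averaged 0.223 TPM in CON and 2.09 TPM in CDCA, so it reached the mean of 1 TPM only through CDCA and was not tested when a CDCA library was left out. BATF3, which pairs with JUN proteins in immune cells, fell from 2.97, 3.85 and 3.83 TPM to 1.81, 1.47 and 1.71 TPM (log2 fold change -0.77, limma FDR 0.0018), and ATF5 fell by 0.31 on the log2 scale. JDP2, a repressor that dimerises with JUN, rose from 2.27, 2.49 and 2.79 TPM to 5.08, 4.55 and 5.16 TPM (0.75, limma FDR 0.00071), and was picked after its values were seen.

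Other immediate early genes went both ways. Of 40 gene IDs, 28 were tested, 14 rose and 10 fell, with 2 called higher and 6 lower and a median log2 fold change of 0.29, which was 0.01 with totals without the mtDNA-encoded genes, 0.13 without the filter and 0.15 without CDCA replicate 3. The shares over all tested genes were 29.3% rose, 23.9% fell, 3.51% called higher and 3.9% called lower. CCN2 (CTGF), a matricellular protein gene, fell from 95.4 ± 5.2 to 35.4 ± 1.3 TPM (mean ± SD, n = 3), or by 1.41 on the log2 scale (limma FDR 6.8e-06). KLF2, a factor of the Krüppel-like family, fell by 1.08 on the log2 scale, SGK1, a serum-induced kinase gene, by 1.02 and PLK2, a polo-like kinase gene, by 1.01. Without CON replicate 2 the changes of KLF2, SGK1 and PLK2 were under 1 in size, as was that of KLF2 without CDCA replicate 3 and that of PLK2 without CON replicate 1 or CDCA replicate 2, while their FDR stayed under 0.05. SGK1 was at -0.81 with its highest listed transcript, and PLK2 at -0.99 where each library was rescaled to 1000000 TPM. PLK3, another polo-like kinase gene, rose (log2 fold change 1.12, or 0.96 with totals without the mtDNA-encoded genes). The survival gene MCL1 had 80.65, 76.74 and 94.08 TPM in CON and 30.52, 6.59 and 43.67 TPM in CDCA, a log2 fold change of -1.94 (limma FDR 0.034), and its FDR was over 0.05 in each fit that left out a CON library, at most 0.090 over all alternatives. Without CDCA replicate 2, the lowest library, the log2 fold change was -1.17 (limma FDR 0.0029). KLF4, a factor of epithelial differentiation, had 1.95, 7.47 and 8.56 TPM in CON and 19.63, 15.50 and 16.10 TPM in CDCA (log2 fold change 1.54, limma FDR 0.022), and its FDR was over 0.05 without CDCA replicate 1 or CDCA replicate 3. Without CON replicate 1 its log2 fold change was 0.999 (limma FDR 0.0016).

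Upstream of AP-1, 18 of 24 genes for kinases from RAS to JNK, ERK and p38 were tested, of which 9 rose, 2 fell and none was called, with a median log2 fold change of 0.20, where 29.3% of all tested genes rose and 23.9% fell. The median was 0.07 (7 rose, 3 fell) with totals without the mtDNA-encoded genes, 0.09 without the filter and 0.36 with the highest listed transcripts. MAP2K4, a kinase that activates JNK, rose from 19.01, 19.43 and 17.56 TPM to 31.51, 30.80 and 31.95 TPM (0.72, limma FDR 7.0e-05). MAP2K2 (MEK2), which activates ERK, rose from 52.87, 52.84 and 52.86 TPM to 83.49, 87.29 and 82.27 TPM (0.66, limma FDR 2.9e-05). RPS6KA5 (MSK1), a kinase that acts on chromatin at early genes, fell by 0.66 on the log2 scale and MAP2K3, which activates p38, by 0.30. RPS6KA5 averaged under 1 TPM in CDCA and entered the test through CON, and with a pseudocount of 0.1 TPM its value was -1.06. MAP2K3 had an FDR over 0.05 (up to 0.082) without CON replicate 1 or 2 or CDCA replicate 1 or 2. Of 6 genes of serum response and ternary complex factors and their cofactors, which act on early genes such as FOS and EGR1, 3 were tested and none passed. SRF itself had 4.82, 6.10 and 5.50 TPM in CON and 4.33, 4.64 and 3.59 TPM in CDCA, a log2 fold change of -0.32 (limma FDR 0.052). It passed under 4 alternatives, without CON replicate 1 (-0.40, limma FDR 0.039), with totals without the mtDNA-encoded genes (-0.47, limma FDR 0.013), with the median ratio scaling (limma FDR 0.037) and with a pseudocount of 0.1 TPM (limma FDR 0.049), and was furthest from passing without CON replicate 2 (-0.25, limma FDR 0.16). FHL2 and ELK3 had log2 fold changes of -0.09 and 0.40, and FHL2 changed sign without CON replicate 3 (0.04). ELK3 was at 0.19 without CON replicate 2 and at 0.21 without CDCA replicate 1.

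Around MYC, 6 of 14 genes of the MAX network were tested, of which 3 rose and 2 fell, too few to set against the 29.3% and 23.9% of all tested genes. With totals without the mtDNA-encoded genes 1 rose and 3 fell, and with the highest listed transcripts 1 rose and 2 fell. MAX, the obligate partner, had 15.32, 15.08 and 14.43 TPM in CON and 17.57, 18.03 and 17.94 TPM in CDCA (log2 fold change 0.24, limma FDR 0.0056), but it was 0.08 (limma FDR 0.25) with totals without the mtDNA-encoded genes and -0.06 (limma FDR 0.71) with its highest listed transcript. It was picked after its values were seen. MNT, a MAX partner that represses MYC sites, rose from 3.95, 4.07 and 4.19 TPM to 6.79, 6.89 and 6.56 TPM (0.61, limma FDR 0.00038). MXD3, another MAX partner of the repressor type, was called lower, at 5.01, 5.01 and 4.45 TPM in CON and 1.27, 1.55 and 1.14 TPM in CDCA (-1.33, limma FDR 9.5e-05), and MLX fell by 0.55 on the log2 scale, or by 0.35 with its highest listed transcript. MXD1, which averaged under 1 TPM in CON and so entered the test only through CDCA, was called higher from 0.84, 1.54 and 0.24 TPM to 2.36, 1.80 and 4.96 TPM (1.09, limma FDR 0.039), a call that 8 of 14 alternatives lost, with an FDR of up to 0.32, and its log2 fold change lay between 0.72 (highest listed transcript) and 1.83 (pseudocount of 0.1 TPM). Among them were the fits without CON replicate 1, CON replicate 3, CDCA replicate 1 or CDCA replicate 3.

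Of 16 genes for ubiquitin ligases and modifiers that act on JUN and MYC proteins, 11 were tested, 2 rose and 4 fell, counts near the 29.3% and 23.9% of all tested genes. COP1, a ligase that targets JUN for degradation, rose from 8.31, 8.18 and 8.12 TPM to 15.31, 14.78 and 14.80 TPM (0.79, limma FDR 4.4e-05), and PPP2R5A, a phosphatase subunit, rose by 0.25, which was 0.08 (limma FDR 0.21) with totals without the mtDNA-encoded genes. AURKA, a mitotic kinase that stabilises MYC family proteins, was called lower, with 39.62, 42.34 and 35.66 TPM in CON and 13.26, 13.44 and 14.44 TPM in CDCA (-1.45, limma FDR 1.8e-05). SKP2, a ligase subunit that acts on MYC, fell by 0.85 on the log2 scale. FBXW7, the ligase subunit best known for turning over both MYC and JUN, had 4.98, 6.08 and 3.70 TPM in CON and 4.91, 3.69 and 4.59 TPM in CDCA (-0.12, limma FDR 0.58, and 0.02 without CON replicate 2), picked after its values were seen.

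Genes long known as targets of these factors were counted next. Of 31 classic AP-1 target IDs, 24 were tested, 21 rose and 2 fell, with a median log2 fold change of 0.85, and 10 were called higher and none lower. Of all tested genes, 29.3% rose, 23.9% fell and 3.51% were called higher. With totals without the mtDNA-encoded genes, 16 of the 24 rose, 2 fell and 9 were called higher, with a median of 0.67. With the median ratio scaling, 19 rose and 9 were called higher. CXCL8, the neutrophil chemokine gene, rose from 9.74, 7.65 and 7.07 TPM to 43.53, 47.60 and 42.67 TPM (2.33, limma FDR 1.5e-05). MMP13, a collagenase gene, rose from 8.25, 8.05 and 7.34 TPM to 33.49, 32.55 and 36.43 TPM (1.99, limma FDR 4.3e-06). The other called genes were HMOX1 (1.91), PLAUR (1.62), LIF (1.51), IL11 (1.49), HBEGF (1.39), VEGFA (1.35), PLAU (1.23) and AREG (1.01), most of which also answer to other stress and inflammatory factors. AREG was under 1 without CON replicate 3 or CDCA replicate 3, with the median ratio scaling (0.96) and with totals without the mtDNA-encoded genes (0.84). CCND1, the gene of cyclin D1, fell from 32.41, 33.49 and 31.89 TPM to 21.24, 20.81 and 21.77 TPM (-0.59, limma FDR 7.6e-05).

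Of 43 classic MYC target IDs, 32 were tested, 2 rose and 23 fell, with a median log2 fold change of -0.46 and none called, and 1 of those that fell averaged 1 TPM or more only in CON. Of all tested genes, 29.3% rose and 23.9% fell. With totals without the mtDNA-encoded genes, 26 of the 32 fell and 3 were called lower. The list holds mostly genes of ribosome production and the nucleolus. NCL, the gene of nucleolin, fell from 446.71, 425.59 and 397.38 TPM to 228.25, 220.92 and 230.00 TPM (-0.90, limma FDR 2.5e-05), and NOLC1, a nucleolar chaperone gene, fell by 0.86 on the log2 scale. ODC1, the rate-limiting enzyme of polyamine synthesis and a textbook MYC target, rose from 170.06, 171.39 and 163.24 TPM to 254.07, 285.12 and 249.99 TPM (0.64, limma FDR 0.00016), and SHMT2, a mitochondrial one-carbon enzyme, rose by 0.48, or by 0.31 with totals without the mtDNA-encoded genes and 0.25 with its highest listed transcript. The difference between the AP-1 and the MYC target lists was not tested, and the lists were written with earlier results of these libraries known.

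The last list held 11 gene IDs of NF-κB, its regulators and other partners of IER3, so its counts are not of NF-κB genes alone. Of these, 10 were tested, 6 rose and 1 fell, with a median log2 fold change of 0.58, where 29.3% of all tested genes rose and 23.9% fell. TNFAIP3 (A20), an inhibitor of NF-κB signalling, rose from 8.07, 8.26 and 7.65 TPM to 15.19, 16.69 and 13.45 TPM (0.84, limma FDR 0.00029). PPP2R5C, a phosphatase subunit that IER3 binds, fell by 0.33 on the log2 scale. RELA, the main transactivating subunit, had overlapping groups and a log2 fold change of -0.42 (limma FDR 0.082), which was -0.60 (limma FDR 0.014) without CDCA replicate 1 and -0.58 (limma FDR 0.029) with totals without the mtDNA-encoded genes. RELB was called higher from 1.95, 2.93 and 0.05 TPM to 9.55, 7.33 and 4.14 TPM (1.74, limma FDR 0.027), and 5 of 14 alternatives lost this call, the fits without CDCA replicate 1 and without CDCA replicate 2 among them, with an FDR of up to 0.081. It was 2.78 with a pseudocount of 0.1 TPM, and 1.17 without CON replicate 3.

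**Figure D5:**
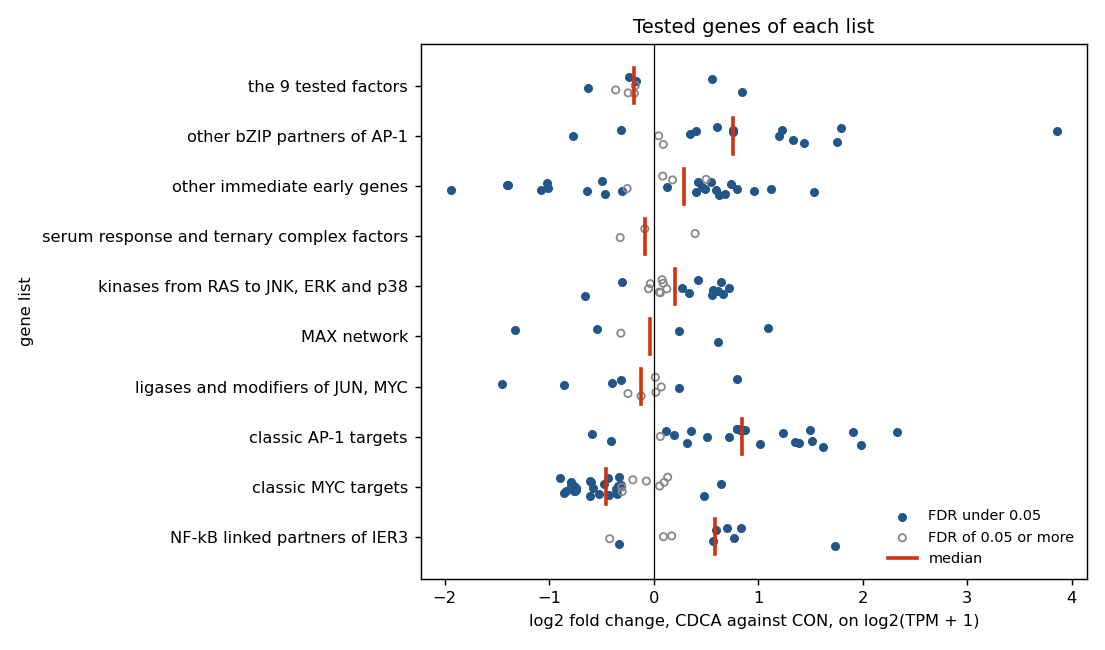
Log2 fold change of CDCA against CON for the tested genes of each list (points; filled where the FDR was under 0.05) with the median of the list (red). The 9 tested factors lie between -0.63 and 0.85, most AP-1 targets lie above 0 and most MYC targets below.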

How the data were processed

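TPM, which are read estimates scaled for transcript length and library size, for 63041 transcripts of the 6 libraries were made by the authors with RSEM and deposited without transcript IDs or read counts. The submitters' processing notes name Bowtie 0.12.2 and the mouse build mm10, whereas the gene IDs are pig IDs. The annotation release is not given in the sources used here, and no coordinates or sequences were used. Read counts per gene were not used here, so no counting interval was computed.

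TPM were summed per gene ID. Of the IDs, 19865 had a symbol, 15029 of them by a table that pairs IDs and symbols and the rest by deposited names or by NCBI gene numbers in the descriptions. Of the list genes, MMP1, NOP16 and BIRC3 were left out because their names clashed. The limma package (3.58.1, under R 4.3.3) fitted log2(TPM + 1) with the trend option of eBayes where the mean reached 1 TPM. The added 1 TPM makes fold changes of low genes too small. The edgeR test of the authors needs counts and was not used. The steps were tested on simulated data.

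The factors and lists were chosen with earlier results of these data known. Besides the 10 factors, the text names the 2 highest and 2 lowest fold changes of each list, every called gene of it, and the 3 nearest profiles of the factors with the largest rise and fall. Of the genes this rule names, 2 are not reported here. Alternatives were a pseudocount of 0.1 TPM, no filter, a replicate block, leaving out single libraries, 3 scalings, the highest transcript and limma without the trend. Single transcripts were added after seeing the data.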

Additional observations from a re-analysis of the deposited data

How the results depend on the processing

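No factor reached a call under any of the 14 alternatives, and 2 rose under each of them. The count of factors that fell, 3 as reported, was 6 with totals without the mtDNA-encoded genes and 5 with the median ratio scaling. These scalings also shifted the median log2 change of the genes shared with the main fit, by -0.15 and -0.04. The share of all tested genes that fell under them was not counted, so the 6 and the 5 have no background. Leaving out single libraries gave 2 to 4 factors that fell. FOSL1, FOSL2, JUNB, IER3 and FOSB kept their direction and their side of the threshold under all 14. The fall of MYC missed the threshold with its highest listed transcript and without CON replicate 2, and JUN, FOS and JUND passed it under 4, 2 and 2 alternatives. Of the tested genes of all lists, whose numbers are given list by list above, 21 were called higher and 8 lower. Over all tested genes the shares were 3.51% and 3.9%. With totals without the mtDNA-encoded genes 13 list genes were called lower, and the share over all tested genes was not counted under that scaling. With each library left out, 17 to 21 were called higher and 4 to 8 lower, the latter at its lowest without CON replicate 2. The cause of these shifts was not tested. Libraries with the same number did not deviate together over the tested genes (r of -0.035, -0.092 and -0.051), and no library correlated best with its own number. These correlations cannot settle whether libraries of the same number were handled as pairs. With the replicate block, 4 factors fell, JUN being the added one (log2 fold change -0.36, limma FDR 0.013). ELK3 then passed (limma FDR 0.049) and MAP2K3 and MXD1 missed the threshold (limma FDR 0.066 and 0.090). No other gene named from the lists changed sides. Within the make-up of the FOS and JUN family mRNA, the differences in total, in the JUNB share and in the JUN family share kept their sign with the highest listed transcripts and with single libraries left out, the alternatives run for them. Without counts per gene, the counting error of low genes such as FOSB and MXD1 is not known.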
